A study of Mus musculus with 48 samples.

Results

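De novo lipogenesis, the building of fatty acids from acetyl-CoA, was followed here through 9 genes of the mouse liver: Slc25a1, Acly, Acss2, Acaca, Acacb, Fasn, Me1, Thrsp and Pnpla3. They were chosen by name as the enzymes and partners of this pathway, out of 55416 gene identifiers counted in each liver. All 9 passed the filter on low counts, as did 15711 genes in total.

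Liver RNA came from 48 mice fed a western diet with 0.2% cholesterol for 8 weeks, from about 8 to 16 weeks of age. In the knock-in study, C57Bl/6J mice carried LXRα W441R, a dominant-negative form of liver X receptor-α (encoded by Nr1h3), on 0 (DN:WT), 1 (DN:HET) or 2 (DN:HOM) alleles. In the knockout study the mice, also labelled C57Bl/6J, had LXRα intact (KO:WT), lacking on 1 allele (KO:HET) or lacking on both (KO:HOM). Every group held 8 livers, each from a separate mouse, and mice of the 3 genotypes of each study came from heterozygous breeding pairs. The knock-in allele was made in embryos with Cas9, traces back to an edited founder and was carried in all cells of the body. So was the knockout allele, which had been backcrossed to C57BL/6 from a mixed Sv129/C57Bl/6 stock. Knock-in mice were male. The knockout experiment was described as a repeat of the knock-in one, without a separate statement of sex in the sources used here. The Y-linked gene Ddx3y was at 63.3 CPM (counts per 1000000 reads on genes, after TMM scaling) or more in all 48 livers, and Xist at no more than 0.481 CPM. The studies used separate colonies kept at different sites, so study and colony cannot be told apart.

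Depth was 13876351 to 16961379 reads on genes in 46 of the livers, and 5332897 and 5376226 in 2 knockout livers (KO:HET animal 3 and KO:HOM animal 17). Nr1h3 was 3.48-fold lower in KO:HOM than in KO:WT livers (25.3 to 31.1 CPM against 81.5 to 108 CPM), and 1.25-fold lower in DN:HOM than in DN:WT livers, a call that was lost with scaling by library size alone (adjusted p = 0.13, edgeR's quasi-likelihood test). A point mutation leaves the transcript in place, so these counts do not check the knock-in genotype. A pair of knock-in libraries went against their labels. The library labelled DN:WT animal 10 lay below all 7 other DN:WT livers for each of the 9 genes and within the range of the other DN:HOM livers for 6 of them. The library labelled DN:HOM animal 12 lay within the range of the other DN:WT livers, and above all 7 other DN:HOM livers, for each of the 9. Markers outside the pathway differed in the same way, with the Kupffer cell marker Clec4f at 0.203 CPM in the library labelled DN:WT animal 10 and 62.1 CPM in that labelled DN:HOM animal 12, and the macrophage marker Gpnmb at 247.5 and 1.12 CPM. Whether these 2 labels were exchanged was not tested, and every value with all 48 livers holds both libraries under the labels they were given. Source values of Abcb11, Baat and Nr0b2 for the knock-in livers could be matched to the remaining 22, and values of these libraries are absent there. For that reason results below rest on the other 46 livers, and values with all 48 are given beside the main ones. The match was made on those genes alone. Whether other results of the paper left out these libraries was not tested, and the legend of its lipid-gene heatmap states full groups.

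As background, citrate made in mitochondria is carried to the cytosol and split into acetyl-CoA, which acetyl-CoA carboxylases turn into malonyl-CoA and fatty acid synthase builds into palmitate with reducing power from NADPH. In the liver the genes of this pathway are switched on together after carbohydrate feeding, through SREBP-1c, whose gene Srebf1 is a direct target of LXR, and through the glucose-responsive factor ChREBP. LXR with its partner RXR also acts on some of these genes itself. In bulk liver RNA, fewer hepatocytes and less RNA per hepatocyte cannot be told apart.

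The sequence upstream of 4 members is shown because they stand for the range of responses described below. Fasn and Acly correlated most closely within groups, Pnpla3 was among the largest changes in both studies, and Slc25a1 had the smallest. The sequences are RefSeq promoters (table build GRCm38.p6) placed in GRCm39 by exact match and cut where an annotated exon begins. They lie at chr11:120715403-120715623 (minus strand), chr11:100418827-100419076 (minus strand), chr15:84051767-84051942 (plus strand) and chr16:17746246-17746333 (minus strand), and read 5′ to 3′ towards the gene. Capitals mark matches, on either strand, to CCAAT (the NF-Y box), GGGCGG (the Sp1 GC box) or CACGTG (an E-box).

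Fasn: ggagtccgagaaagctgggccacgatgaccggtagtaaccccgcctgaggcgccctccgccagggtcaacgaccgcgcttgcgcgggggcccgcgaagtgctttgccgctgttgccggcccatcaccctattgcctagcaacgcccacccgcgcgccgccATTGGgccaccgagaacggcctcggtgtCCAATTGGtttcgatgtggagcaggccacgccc
Acly: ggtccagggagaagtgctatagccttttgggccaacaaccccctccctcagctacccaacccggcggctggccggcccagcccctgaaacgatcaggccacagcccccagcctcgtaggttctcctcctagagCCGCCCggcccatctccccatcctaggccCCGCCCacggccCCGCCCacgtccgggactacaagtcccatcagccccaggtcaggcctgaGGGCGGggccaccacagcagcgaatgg
Pnpla3: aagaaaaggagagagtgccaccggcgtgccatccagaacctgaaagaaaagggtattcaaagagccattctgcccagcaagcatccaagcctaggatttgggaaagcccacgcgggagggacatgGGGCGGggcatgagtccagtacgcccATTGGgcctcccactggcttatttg
Slc25a1: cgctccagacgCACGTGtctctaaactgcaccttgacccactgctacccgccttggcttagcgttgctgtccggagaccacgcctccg

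Fasn held 3 CCAAT matches, starting 90, 62 and 59 bases before the RefSeq start site, of which the last 2 overlap on opposite strands. Acly held 4 GC boxes and no CCAAT, and Pnpla3 held 1 CCAAT and, in the printed run, 1 GC box. Slc25a1 held the single E-box found in any member, 239 bases before its start, and its window also holds 1 CCAAT and 4 GC boxes beyond the printed run. Over the 250 bases before the start, CCAAT occurred in 7 of the 10 member windows (Me1 has 2), against 33.9% of 32851 promoters of that length, and GGGCGG in 5 of 10, against 32.7%. The E-box is in 6.02% of all promoters. The sterol element TCACNCCAC (1.05% of all promoters) and the LXR repeat DR4 (0.015%) were found in 0 of the 10. The windows of Acss2, Acaca, Acacb, Acly and 1 of Me1 start 4284 to 65788 bases inside the longest annotated gene model, so other start sites of these genes were not searched. The start site of the Fasn window also lies inside its model, by 622 bases, so the annotated start of Fasn was not searched either.

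In DN:HOM livers all 9 genes were lower than in DN:WT livers, with log2 fold changes from -5.67 for Thrsp to -0.79 for Slc25a1 and a median of -2.60, where the median of all genes tested was -0.012. All 9 passed an adjusted p of 0.05 in edgeR (quasi-likelihood test, Benjamini-Hochberg adjustment), the largest being 3.03e-07, while 30% of all genes tested (4713 of 15711) were called lower. For each of the 9, every one of the 7 DN:HOM livers lay below every one of the 7 DN:WT livers, a separation seen in 15.8% of all genes. It depended on which livers were used, since with the libraries labelled DN:WT animal 10 and DN:HOM animal 12 included 0 of the 9 separated (0.0636% of genes). The share of reads that name no gene moved with these groups too, at 24.6% to 26.7% in the 7 DN:HOM livers and 26.2% to 34.3% in the 7 DN:WT livers, and its part in the changes of the 9 genes was not tested. With all 48 livers the 9 were again called lower (25.0% of genes), with a median of -1.92 and the largest adjusted p at 0.00234 by the same test. In KO:HOM livers the 9 were also all called lower than in KO:WT livers (7.87% of genes), with a median of -1.27, and the ranges of the groups overlapped for each of the 9 (0.369% of genes separated fully). With all 48 livers 6 of the 9 were called in the knockout (4.12% of genes). Acaca, Fasn and Thrsp were not, with adjusted p of 0.164, 0.0966 and 0.19 by edgeR's quasi-likelihood test, although the knockout livers were the same.

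**Figure D1:**
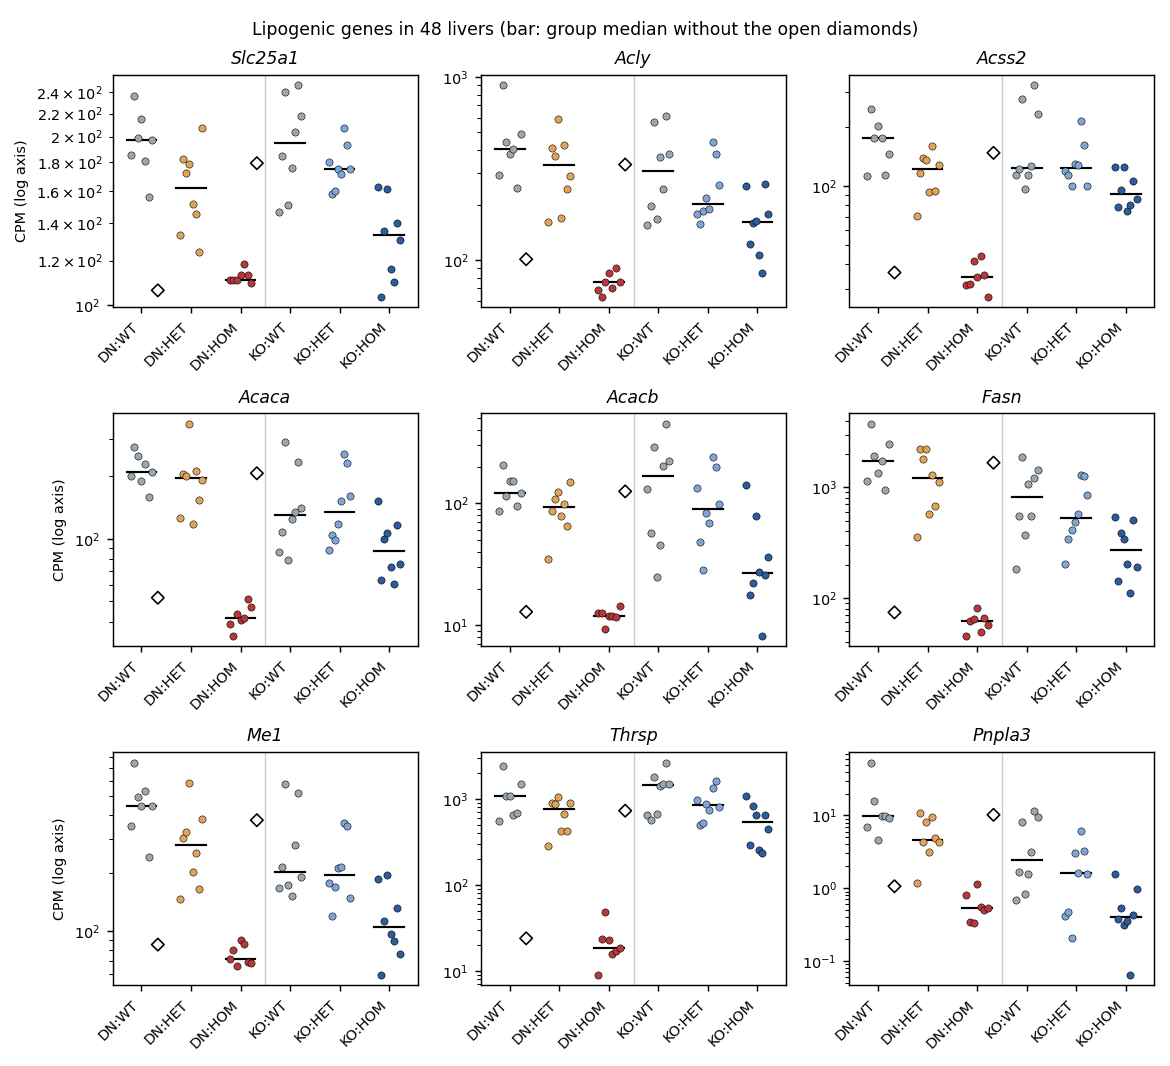
CPM of the 9 lipogenic genes in each of the 48 livers, on a log axis, by group. Filled points are the 46 livers tested, bars their group medians, and open diamonds the libraries labelled DN:WT animal 10 and DN:HOM animal 12. The 7 red DN:HOM points lie below all filled DN:WT and DN:HET points in every panel, while KO:HOM points overlap those of KO:WT.

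The supply of cytosolic acetyl-CoA rests on Slc25a1, the mitochondrial citrate carrier, on Acly, ATP citrate lyase, which splits citrate, and on Acss2, which makes acetyl-CoA from acetate. Slc25a1 (ENSMUSG00000003528, chromosome 16 of GRCm39 from 17743075 to 17746245, minus strand) had the narrowest range of the 9 in DN:HOM livers. DN:WT livers held 156 to 237 CPM (median 197) and DN:HOM livers 109 to 119 CPM (median 111). The DN:HOM values lay within 1.08-fold of each other. The log2 fold change was -0.79 (SE 0.11, adjusted p = 4.84e-08, edgeR's quasi-likelihood test), -0.61 with all 48 livers and -0.36 (adjusted p = 0.00199, same test) with scaling by library size alone. In the knockout, Slc25a1 stood at 147 to 247 CPM (median 195) in KO:WT and 103 to 163 CPM (median 133) in KO:HOM livers, of which 6 of 8 lay below every KO:WT liver. Its log2 fold change there was -0.57 (SE 0.10, adjusted p = 7.81e-05, edgeR's quasi-likelihood test).

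Acly (ENSMUSG00000020917, chromosome 11 from 100367165 to 100440756, minus strand) ranged from 246 to 902 CPM (median 404) in DN:WT livers and from 62.9 to 90.8 CPM (median 75.5) in DN:HOM livers. The DN:WT range was stretched by animal 17, which was the highest DN:WT liver for all 9 genes. Acly fell by 2.56 on the log2 scale (SE 0.32, adjusted p = 3.89e-09, edgeR's quasi-likelihood test), a 5.92-fold lower level, and the log2 fold change was -1.92 with all 48 livers. KO:WT livers held 156 to 611 CPM (median 306) and KO:HOM livers 85.0 to 260 CPM (median 161). All 8 KO:HOM livers lay under the KO:WT median and 3 of them under every KO:WT liver. The log2 fold change was -1.03 (SE 0.29, adjusted p = 0.00776, edgeR's quasi-likelihood test).

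Acss2 (ENSMUSG00000027605, chromosome 2 from 155355679 to 155428016, plus strand) was at 112 to 247 CPM (median 176) in DN:WT and at 27.4 to 44.4 CPM (median 34.4) in DN:HOM livers. The groups lay far apart, with a log2 fold change of -2.24 (SE 0.23, adjusted p = 3.78e-11, edgeR's quasi-likelihood test), or -1.62 with all 48 livers. In KO:WT livers Acss2 ran from 97.0 to 327 CPM with a median of 125, and in KO:HOM livers from 74.6 to 125 CPM with a median of 91.4. Here 5 of 8 KO:HOM livers lay below every KO:WT liver, and the log2 fold change was -0.87 (SE 0.21, adjusted p = 0.00192, edgeR's quasi-likelihood test). Exons of Acss2 overlap those of Gss on the other strand, and 22.6% of the reads on Acss2 were antisense, against 6.08% to 11.8% for the other 8 genes. Counting both strands together changed no call of Acss2.

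Acetyl-CoA carboxylase commits acetyl-CoA to fatty acids. Acaca encodes its cytosolic form ACC1, which feeds the synthase, and Acacb its mitochondrial form ACC2, whose malonyl-CoA holds back the carnitine shuttle. Acaca (ENSMUSG00000020532, chromosome 11 from 84020476 to 84292477, plus strand) was at 159 to 274 CPM (median 208) in DN:WT and at 34.3 to 51.2 CPM (median 41.6) in DN:HOM livers. It fell by 2.33 on the log2 scale (SE 0.26, adjusted p = 2.96e-10, edgeR's quasi-likelihood test), or by 1.63 with all 48 livers. In the knockout its groups overlapped, with 78.7 to 291 CPM (median 130) in KO:WT and 60.6 to 151 CPM (median 87.6) in KO:HOM livers. The log2 fold change was -0.69 (SE 0.23, adjusted p = 0.0313, edgeR's quasi-likelihood test), and of the 9 calls it alone was lost when single livers were left out. It was lost without any 1 of KO:WT animals 23 and 34 or KO:HOM animals 8, 17, 26 and 27 (adjusted p from 0.0121 to 0.118 over the 16 livers left out in turn, edgeR's quasi-likelihood test). The call was also lost with the compared groups alone (0.081), with each study alone (0.0825), with scaling by library size alone (0.0765) and without the livers under 10000000 reads (adjusted p = 0.0657, same test).

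Acacb (ENSMUSG00000042010, chromosome 5 from 114284307 to 114388822, plus strand) fell further. DN:WT livers had 86.8 to 207 CPM (median 122) and DN:HOM livers 9.31 to 14.4 CPM (median 12.03), a log2 fold change of -3.44 (SE 0.52, adjusted p = 3.03e-07, edgeR's quasi-likelihood test) that came to -2.18 with all 48 livers. Among knockout livers it was the most scattered of the abundant members. KO:WT livers ran from 24.8 CPM in animal 31 to 447 CPM in animal 34 (median 167), and KO:HOM livers from 8.23 CPM in animal 27 to 142 CPM in animal 11 (median 26.7). Every KO:HOM liver was under the KO:WT median, and the log2 fold change was -1.98 (SE 0.46, adjusted p = 0.00144, edgeR's quasi-likelihood test).

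The balance of the carboxylases was compared within each liver, as log2 of Acacb CPM over Acaca CPM with 0.1 added to each. It was -0.74 ± 0.34 (SD, n = 7) in DN:WT and -1.80 ± 0.28 (SD, n = 7) in DN:HOM livers, a shift of -1.07 with no overlap between the groups (exact permutation test, two-sided, p = 0.000583, which is the lowest value 7 against 7 livers can give, adjusted p = 0.00117 over 2 comparisons). In the knockout it was -0.16 ± 1.04 (SD, n = 8) in KO:WT and -1.50 ± 0.94 (SD, n = 8) in KO:HOM livers, a shift of -1.34 with overlapping groups (exact permutation p = 0.0197, adjusted p = 0.0197). With all 48 livers the knock-in shift was -0.77 (exact permutation, adjusted p = 0.0197). KO:WT livers split widely on this ratio, from -1.66 in animal 31 to 0.93 in animal 34.

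**Figure D2:**
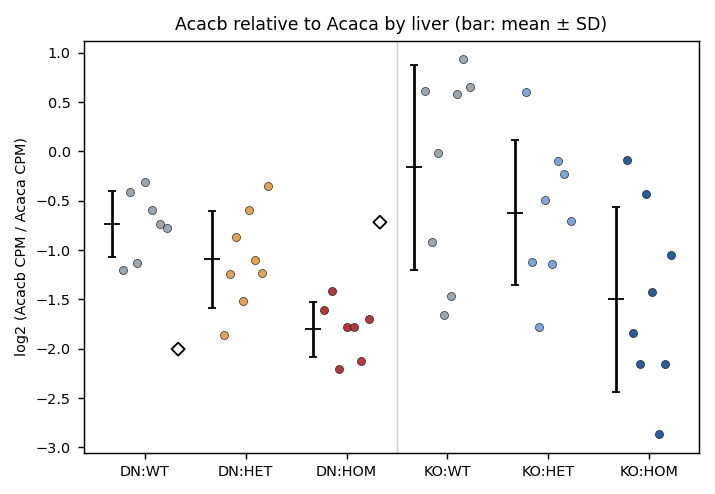
Log2 ratio of Acacb to Acaca CPM in each liver by group, with bars for the mean ± SD of the 46 livers tested and open diamonds for the libraries labelled DN:WT animal 10 (-2.004) and DN:HOM animal 12 (-0.72). The DN:HOM points lie between -2.21 and -1.42, below all 7 filled DN:WT points, and the knockout points spread over a wider range.

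Fasn (ENSMUSG00000025153, chromosome 11 from 120696672 to 120715995, minus strand) encodes fatty acid synthase, which assembles palmitate. DN:WT livers held 946 to 3734 CPM (median 1735) and DN:HOM livers 45.6 to 81.1 CPM (median 61.7). The lowest DN:WT liver, animal 5, was still well above the highest DN:HOM liver, animal 31. Its level was 30.99-fold lower (log2 fold change -4.95, SE 0.50, adjusted p = 1.79e-11, edgeR's quasi-likelihood test), and 6.39-fold lower with all 48 livers, where the library labelled DN:WT animal 10 had 73.95 CPM and that labelled DN:HOM animal 12 had 1668 CPM. KO:WT livers ran from 184 to 1859 CPM (median 813), so that wild-type animals differed by 10.1-fold, and KO:HOM livers from 110 to 540 CPM (median 271). The 8 KO:HOM livers were all under the KO:WT median, with a 2.997-fold lower level (log2 fold change -1.58, SE 0.40, adjusted p = 0.00365, edgeR's quasi-likelihood test).

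NADPH for the synthase comes in part from Me1, cytosolic malic enzyme (ENSMUSG00000032418, chromosome 9 from 86462646 to 86578104, minus strand). Me1 was at 242 to 744 CPM (median 447) in DN:WT and at 66.2 to 90.1 CPM (median 72.1) in DN:HOM livers. The log2 fold change was -2.60 (SE 0.32, adjusted p = 2.46e-09, edgeR's quasi-likelihood test), or -1.88 with all 48 livers. In KO:WT livers it ran from 151 to 579 CPM (median 203) and in KO:HOM livers from 59.7 to 195 CPM (median 105), of which 6 of 8 lay below every KO:WT liver. The log2 fold change was -1.27 (SE 0.28, adjusted p = 0.00107, edgeR's quasi-likelihood test).

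Thrsp, or Spot 14 (ENSMUSG00000035686, chromosome 7 from 97062139 to 97066937, minus strand), is a small nuclear and cytosolic protein induced with lipogenesis that has no enzyme activity of its own. It was the most abundant of the 9 per length of transcript, at 890 CPM per kilobase in DN:WT livers, where Fasn had 176, Me1 112, Slc25a1 107, Acly 102, Acss2 55.8, Acaca 22.6, Acacb 14.6 and Pnpla3 11.2. DN:WT livers held 559 to 2426 CPM (median 1075) and DN:HOM livers 9.05 to 48.05 CPM (median 18.5). This was the largest change among the 9, 51.0-fold lower (log2 fold change -5.67, SE 0.45, adjusted p = 3.19e-14, edgeR's quasi-likelihood test), and 9.03-fold lower with all 48 livers. In the knockout study Thrsp was at 570 to 2636 CPM (median 1462) in KO:WT and 235 to 1072 CPM (median 546) in KO:HOM livers, 2.44-fold lower (log2 fold change -1.29, SE 0.35, adjusted p = 0.00651, edgeR's quasi-likelihood test). Every KO:HOM liver thus held more Thrsp than any of the 7 DN:HOM livers.

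Pnpla3, a lipid-droplet protein with lipase and acyltransferase activity that is switched on by SREBP-1c (ENSMUSG00000041653, chromosome 15 from 84051943 to 84073723, plus strand), was the least abundant of the 9, with 3398 reads over all 48 livers and 1 read in the lowest. Its values near 0.1 CPM therefore rest on very few reads. DN:WT livers held 4.63 to 53.0 CPM (median 9.84), the top value coming from animal 17, and DN:HOM livers 0.336 to 1.13 CPM (median 0.542). The log2 fold change was -4.67 (SE 0.66, adjusted p = 6.44e-08, edgeR's quasi-likelihood test), or -3.01 with all 48 livers. Pnpla3 was also the member with the largest fall in the knockout, from 0.697 to 11.7 CPM (median 2.42) in KO:WT to 0.0648 to 1.59 CPM (median 0.406) in KO:HOM livers. There 6 of 8 KO:HOM livers lay below every KO:WT liver, with a log2 fold change of -2.97 (SE 0.64, adjusted p = 0.000674, edgeR's quasi-likelihood test).

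**Figure D3:**
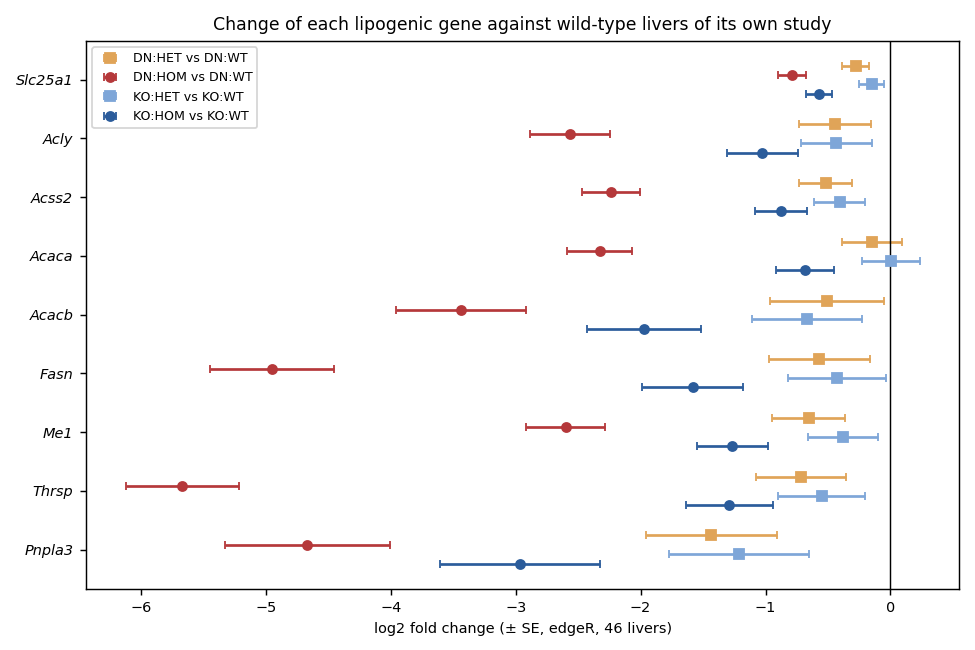
Log2 fold change of each gene against the wild-type livers of its own study, with the standard error from edgeR, over 46 livers. Circles are homozygous and squares heterozygous livers. DN:HOM circles run from -5.67 for Thrsp to -0.79 for Slc25a1 and KO:HOM circles from -2.97 for Pnpla3 to -0.57 for Slc25a1. Each square lies nearer to 0 than the circle of the same gene and study.

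Whether the fall differed between the studies was tested as the difference of the homozygous effects. For 6 of the 9 it was larger in the knock-in (18.3% of genes were called in this direction). The differences on the log2 scale were -4.38 for Thrsp (SE 0.53, adjusted p = 1.41e-08), -3.37 for Fasn (SE 0.59, adjusted p = 1.67e-05) and -1.64 for Acaca (SE 0.34, adjusted p = 0.000194), all by edgeR's quasi-likelihood test. Acly (-1.54), Acss2 (-1.37) and Me1 (-1.34) had adjusted p from 0.000422 to 0.00968 in the same test. No call was made for Acacb (-1.46, SE 0.66, adjusted p = 0.0792), Pnpla3 (-1.70, SE 0.92, adjusted p = 0.152) or Slc25a1 (-0.22, SE 0.15, adjusted p = 0.267) by edgeR's quasi-likelihood test. Acacb was called without KO:HOM animal 27 or without KO:WT animal 34, and the difference of Slc25a1 was 0.09 with scaling by library size alone. With all 48 livers 0 of the 9 were called in this comparison (6.42% of genes), with adjusted p from 0.159 to 0.99 and 2 at an unadjusted p under 0.05 in edgeR. The differences in edgeR were smaller with all 48 livers, from -1.89 to -0.05 on the log2 scale. Their median was -0.755, against -1.54 in the main fit. DESeq2 with all 48 livers also called 0 of the 9, with 2 at an unadjusted p under 0.05. All 6 calls held when each of the 30 livers of this comparison was left out in turn.

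No member was called in heterozygous livers against wild-type ones. In DN:HET livers all 9 estimates were below 0, from -1.43 for Pnpla3 to -0.15 for Acaca (0.00 with all 48 livers), and edgeR's quasi-likelihood test called 0 of them, where it called 0.0700% of genes lower (adjusted p from 0.152 to 0.864). At an unadjusted p under 0.05 there were 4 (Acss2, Me1, Pnpla3 and Slc25a1), and DESeq2 called 0. Individual mice spread widely. Animal 14 was the lowest DN:HET liver for Acly, Acss2, Acacb, Fasn, Me1, Thrsp and Pnpla3, with 356 CPM of Fasn, while animal 16 had 2217 CPM, above the DN:WT median. For Acss2 and Thrsp all 8 DN:HET livers were under the DN:WT median. In KO:HET livers 8 of 9 estimates were below 0, from -1.22 for Pnpla3 to 0.00 for Acaca, with 0 called by edgeR's quasi-likelihood test, which called 0.00636% of genes lower, and 0 by DESeq2. At an unadjusted p under 0.05 there was 1, Pnpla3. Shares of all genes at that unadjusted threshold are not given here for any comparison. The heterozygous estimate came to 6.25% (Acaca) to 35.3% (Slc25a1) of the homozygous one in the knock-in, and to at most 46.5% (Acss2) in the knockout.

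DN:HOM livers were lower than DN:HET livers for all 9 genes (27.8% of genes called lower, 24.9% with all 48 livers, where the 9 were called too), with log2 fold changes from -4.96 for Thrsp to -0.51 for Slc25a1 and the largest adjusted p at 8.06e-05 by edgeR's quasi-likelihood test. With all 48 livers these log2 fold changes ran from -2.65 to -0.42, with a median of -1.63 against -2.18 over the 46. With scaling by library size alone Slc25a1 was not called (-0.13, adjusted p = 0.232, same test). None of the 7 DN:HOM livers reached the lowest DN:HET liver for any of the 9, a separation seen in 10.5% of genes, and in 0 of the 9 (0.388% of genes) with all 48 livers. KO:HOM against KO:HET livers gave 3 calls, Slc25a1 (-0.42, adjusted p = 0.00596), Me1 (-0.89, adjusted p = 0.0348) and Acaca (-0.69, adjusted p = 0.0482) by edgeR's quasi-likelihood test, with 3.34% of genes called lower. This count ran from 1 (without KO:HET animal 3, for example) to 5 (without KO:HET animal 16) as the 16 livers were left out in turn. The call of Slc25a1 held each time. Those of Me1 and Acaca were both lost without any 1 of KO:HOM animals 8, 17, 20, 26 and 27 or KO:HET animals 3, 6 and 7, and that of Acaca also without KO:HET animal 4 or 9. The call of Acaca was lost as well with upper-quartile scaling (0.0545), without a filter (0.0647), with the compared groups alone (0.079) and with library size alone (adjusted p = 0.08, edgeR's quasi-likelihood test). Both Acaca and Me1 were lost with all 48 livers (0.218 and 0.155), with each study alone (0.113 and 0.0694) and without the livers under 10000000 reads (adjusted p = 0.0936 and 0.0976, same test). DESeq2 called 6 of the 9 over the 46 livers, where it called 599 of 15711 genes lower. Acacb and Fasn gained a call without KO:HOM animal 11 or KO:HET animal 16, among others.

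Wild-type livers of the studies differed in 1 of the 9. Pnpla3 was 3.30 times as high in DN:WT as in KO:WT livers (log2 fold change 1.72, SE 0.53, adjusted p = 0.0258, edgeR's quasi-likelihood test, with 5.54% of genes called higher). The call was lost without any 1 of DN:WT animal 17, KO:WT animal 14 or KO:WT animal 32, and with all 48 livers. Without KO:WT animal 23, Acaca, Fasn and Me1 were called as well. The Fasn estimate was 1.06 (SE 0.41, adjusted p = 0.0809, edgeR's quasi-likelihood test), and that of Slc25a1 was -0.01, a value whose sign changed with the scaling.

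Summed over the 9 genes, DN:WT livers held 2645 to 8824 CPM (median 4067), DN:HET livers 1317 to 5249 CPM (median 3317) and DN:HOM livers 390 to 480 CPM (median 438). The DN:HOM sums were tightly packed, with an SD of 30.7 CPM against 2079 CPM in DN:WT livers. In the knockout the sums were 1637 to 6248 CPM (median 3365) in KO:WT, 1540 to 4410 CPM (median 2271) in KO:HET and 779 to 2635 CPM (median 1519) in KO:HOM livers. The lowest KO:HOM liver, animal 27, which was the lowest of its group for 6 of the 9 genes, thus held more than the highest of the 7 DN:HOM livers. The libraries labelled DN:WT animal 10 and DN:HOM animal 12 held 492.8 and 3776 CPM.

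Mice that were high for 1 of these genes tended to be high for the others. With the group means subtracted from log2 CPM, all 36 pairs of members correlated positively over the 46 livers, with Pearson's r from 0.56 (Acacb and Fasn) to 0.91 (Acly and Fasn) and a median of 0.75, and Spearman's rho from 0.57 to 0.93. All 36 passed an adjusted p of 0.05 over the 36 pairs in permutation tests of 100000 draws within groups, the largest adjusted p being 0.0007 for r and 0.00047 for rho (1e-05 is the smallest unadjusted p these permutations can give). Without the 2 livers farthest from the median of the first gene of a pair, r ran from 0.52 to 0.91. Within the knock-in study alone (22 livers) r ran from 0.39 (Slc25a1 and Pnpla3) to 0.93 (Acly and Fasn), and within the knockout study alone (24 livers) from 0.55 (Acacb and Fasn) to 0.91 (Acly and Acaca). These genes share libraries and scaling, and the share of all gene pairs that would pass is not given here.

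The share of reads naming no gene varied along with this shared level. With group means subtracted, livers with a higher share were lower for all 9 genes over the 46 livers, with Pearson's r from -0.63 (Fasn) to -0.45 (Me1) and Spearman's rho from -0.61 (Fasn) to -0.42 (Pnpla3). All 9 passed in permutation tests of 100000 draws within groups, with adjusted p over the 9 genes of at most 0.008 for r and 0.011 for rho, and r ran from -0.57 to -0.38 without the 2 livers farthest from the median share. Within the knockout study 8 of the 9 passed for r and for rho (r from -0.70 to -0.44), and within the knock-in study 3 passed for r and 0 for rho (r from -0.72 to -0.25, rho from -0.61 to -0.10, the smallest adjusted permutation p for rho being 0.11, with 2 genes at an unadjusted p under 0.05). After a linear fit on this share was taken out, all 36 pairs of members still correlated positively, with r from 0.34 to 0.86 and a median of 0.645 in place of 0.75, and 36 passed for r and 35 for rho (largest adjusted permutation p of 0.049 and 0.052). What sets this share was not tested. How many of all genes vary with it is not given here.

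**Figure D4:**
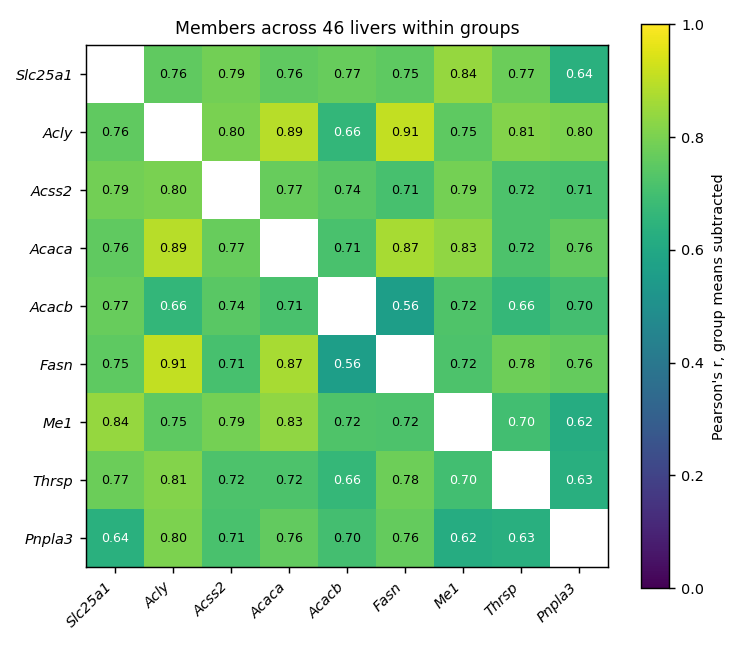
Pearson's r between members over 46 livers after the group mean of log2 CPM was subtracted. Brighter cells are higher. Acly, Acaca and Fasn form the brightest block (0.87 to 0.91), and Acacb with Fasn is the lowest cell at 0.56.

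Ranked by r with Fasn in the same way among 13249 genes with a mean of at least 1 CPM, Acly came at rank 1 (0.91) and Acaca at rank 3 (0.87). Thrsp was at rank 12, Pnpla3 at 18, Slc25a1 at 22, Me1 at 38, Acss2 at 43 and Acacb at 184. Among the genes outside the 9 that followed Fasn most closely were Elovl6 (r = 0.89), a fatty acid elongase, Gpam (0.85), the first acyltransferase of glycerolipid synthesis, Mvd (0.81), Sc5d (0.81) and Hmgcs1 (0.80), enzymes of cholesterol synthesis, and Acsl5 (0.79), which activates fatty acids.

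Genes around the pathway were counted from lists written for this tissue, beside background shares of 30% of genes called lower and 29.1% called higher in DN:HOM, and 7.87% and 11.5% in KO:HOM livers. Of 18 regulators, 11 fell and 2 rose in DN:HOM livers (median log2 fold change -0.28) and 7 fell in KO:HOM livers (median -0.16), with the targeted Nr1h3 among those that fell in both. Srebf1 fell from 945.7 to 103.6 CPM on average in DN:HOM livers (log2 fold change -3.18) and Insig1, which retains SREBP in the endoplasmic reticulum, from 359 to 62.3 CPM (-2.51). Mid1ip1, a relative of Thrsp that helps ACC1 polymerise, fell from 113 to 19.9 CPM (-2.49), and Mlxipl, which encodes ChREBP, from 681 to 269 CPM (-1.33). In KO:HOM livers these changes were -0.71, -1.10, -1.05 and -0.41, all past the threshold in edgeR's quasi-likelihood test. The NF-Y subunit genes Nfya, Nfyb and Nfyc did not pass it in either study.

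Of 9 other genes of NADPH supply, 6 fell and 1 rose in DN:HOM livers (median -0.40), and 1 fell and 1 rose in KO:HOM livers (median -0.12). The gene that rose was G6pdx, the entry enzyme of the pentose phosphate pathway, from 5.15 to 11.6 CPM in the knock-in (1.18) and from 4.45 to 8.51 CPM in the knockout (0.94), in contrast to Me1. Idh1, cytosolic isocitrate dehydrogenase, fell in both (-0.82 and -0.33). Nadk, which makes NADP from NAD, fell by 0.71 and Tkt, transketolase, by 0.52 in the knock-in. Of 17 genes of acetyl-CoA and citrate supply, 14 fell and 2 rose in DN:HOM livers (median -0.80), and 6 fell and 2 rose in KO:HOM livers (median -0.24). The 2 that rose over the 46 livers were the same in both studies, Pdp1, a pyruvate dehydrogenase phosphatase, from 0.855 to 5.36 CPM in the knock-in (2.65), and Acss1, the mitochondrial counterpart of Acss2, from 0.439 to 2.59 CPM (2.55). Acss3 (-2.74) and Pdk1 (-2.46) fell furthest there.

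Of 15 genes of glycolysis and fructolysis, 13 fell in DN:HOM livers (median -0.85) and 5 in KO:HOM livers (median -0.13), and 0 rose in either. Among those that fell were Pfkfb1 (-1.83) and Pklr, liver pyruvate kinase, from 515 to 146 CPM (-1.81). Among 14 genes that modify the carboxylases and the synthase, 5 fell and 3 rose in DN:HOM livers (median -0.08), and 3 fell in KO:HOM livers (median -0.10). The 3 that rose were Prkab2 (1.33) and Prkaa1 (0.51), subunits of AMP-activated kinase, and Brca1 (0.91), whose protein binds phosphorylated ACC1. Other subunits of the kinase, Prkaa2 (-0.44) and Prkag2 (-0.38), fell, as did Kat8 (-0.55), and Prkab1 (0.01) and Prkag1 (0.00) did not pass the test. Of 11 genes of desaturation and elongation, of which some act on the palmitate that Fasn makes and others on polyunsaturated fatty acids from the diet, 8 fell and 3 rose in DN:HOM livers (median -1.13) and 7 fell and 1 rose in KO:HOM livers (median -0.85). Scd1, the main liver desaturase (-5.68), and Elovl3 (-2.92) fell. Elovl6, which extends palmitate, fell from 225 to 21.7 CPM (-3.36), whereas Elovl7 rose from 0.218 to 14.4 CPM (6.00) and Scd2 from 9.13 to 31.99 CPM (1.82). With all 48 livers these changes were -2.54 for Scd1, -1.85 for Elovl3, -2.18 for Elovl6, 2.47 for Elovl7 and 1.16 for Scd2.

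**Figure D5:**
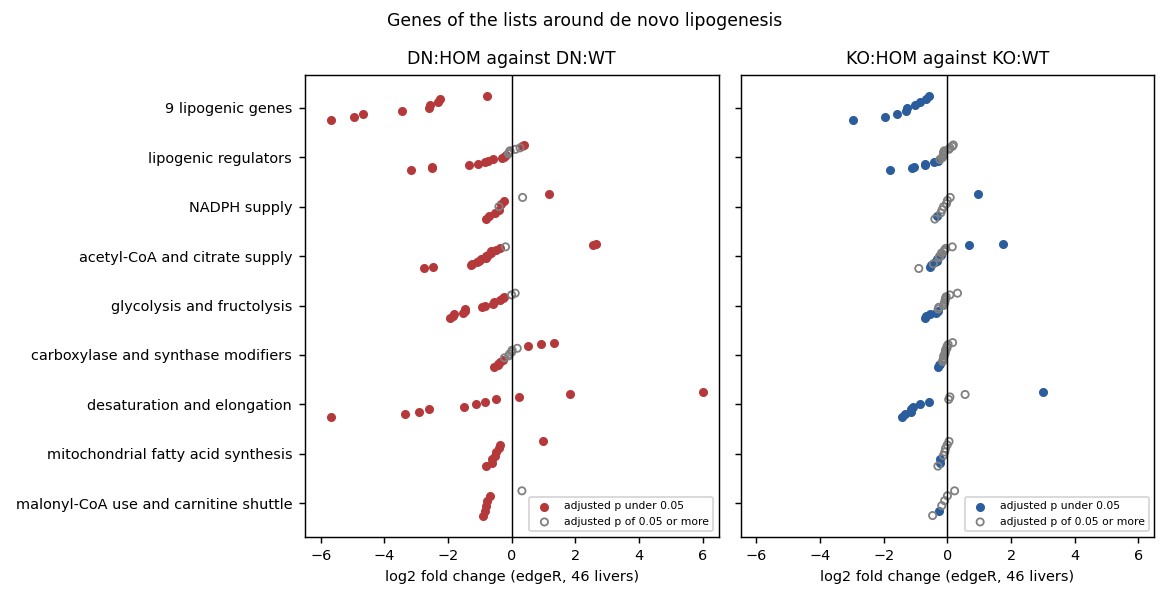
Log2 fold change of each gene of 8 lists around de novo lipogenesis, with the 9 members on top, in DN:HOM (left) and KO:HOM livers (right) against wild-type livers of the same study. Filled points passed an adjusted p of 0.05 in edgeR and open points did not. In DN:HOM livers the members (to -5.67) and the elongation list (to -5.68) reach furthest to the left, and in KO:HOM livers the members (to -2.97) and the regulators (Nr1h3, -1.80) do, with Elovl7 far to the right in both panels.

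With all 48 livers the knock-in counts of these 6 lists were nearly the same, at 10 regulators, 6 genes of NADPH supply, 14 of acetyl-CoA and citrate supply, 13 of glycolysis and fructolysis, 5 modifiers and 8 of desaturation and elongation called lower. In the knockout the counts came to 5, 1, 3, 1, 3 and 3, fewer than with 46 livers for 4 of the 6 lists. The knock-in changes were smaller with all 48 livers. The list medians were -0.21, -0.35, -0.62, -0.65, -0.06 and -0.80 in the same order, with Srebf1 at -2.13, Acss3 at -1.59 and Pdp1 at 1.67. G6pdx was not called in either study with all 48 livers (adjusted p of 0.0637 and 0.0686, edgeR's quasi-likelihood test), nor were Srebf1 (0.199), Mlxipl (0.1) and Pdp1 (0.249) in the knockout.

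Markers of other cell types moved in the same 46 livers. Over all 48, edgeR called 8 of 10 macrophage, 6 of 6 Kupffer cell, 5 of 5 cholangiocyte and 6 of 7 stellate cell markers in the same directions in DN:HOM livers, where Adgre1 (0.0747) and Mpeg1 (adjusted p = 0.0945, edgeR's quasi-likelihood test) were lost. Over the 46 livers all 10 macrophage markers rose and all 6 Kupffer cell markers fell in DN:HOM livers, the summed macrophage level lying at 1429 to 2285 CPM against 212 to 384 CPM in DN:WT and the summed Kupffer level at 1.71 to 3.50 against 140 to 268 CPM. All 5 cholangiocyte markers rose (718 to 1066 against 29.98 to 70.46 CPM), as did 6 of 7 stellate cell markers (512 to 719 against 78.2 to 137 CPM). Most of the cholangiocyte sum was Spp1, which averaged 857 CPM in DN:HOM livers, where Krt19, Krt7, Epcam and Sox9 averaged 9.66, 6.25, 17.7 and 23.5 CPM. Of 14 hepatocyte markers, 7 fell and 1 rose, and their sum was 62110 to 74260 CPM in DN:HOM against 92410 to 110400 CPM in DN:WT livers. In KO:HOM livers 8 of 10 macrophage markers rose (7 with all 48 livers) and 7 of 14 hepatocyte markers fell (3 with all 48), with sums of 425 to 1643 and 84320 to 104900 CPM against 144 to 347 and 106100 to 135200 CPM in KO:WT. There 4 of 6 Kupffer cell markers fell (3 with all 48), from sums of 82.7 to 305 CPM to 22.7 to 69.1 CPM, and 4 of 7 stellate cell markers rose (1 with all 48), from 68.7 to 217 CPM to 101 to 255 CPM. The largest Kupffer marker change in KO:HOM livers was Cd5l, from 73.15 to 0.9145 CPM on average (-6.69). Clec4f changed by -1.18, and Vsig4 (-0.27) and Marco (-0.31) did not pass the test. Of 5 cholangiocyte markers 1 rose in KO:HOM livers, Spp1 (1.42), and 0 with all 48. The median hepatocyte marker moved by -0.28 in the knock-in and -0.30 in the knockout, but Apoa2 (-1.51), Cps1 (-1.38), Alb (-1.14), Ttr (-0.94) and Tat (-0.83) fell further than Slc25a1 in DN:HOM livers, as Tat (-0.84) and Apoa1 (-0.63) did in KO:HOM livers. In DN:HOM livers Trf rose (0.34), and Serpina1a (-0.21), Fgb (0.07), Fga (-0.12), Fgg (-0.09), Hnf4a (-0.15) and Ahsg (0.20) did not pass the test. With all 48 livers 6 of the 14 fell and 1 rose in DN:HOM livers. Tat was not called there (-0.61, adjusted p = 0.0604, edgeR's quasi-likelihood test). The adipocyte-defining genes Adipoq, Lep, Retn and Plin1 averaged at most 0.406 CPM in each of the 6 groups, and of 8 adipocyte markers 4 were tested, of which 3 fell in DN:HOM livers and 2 in KO:HOM livers (1 with all 48 livers). The part of these cell types in the changes of the 9 genes was not tested.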

How the data were processed

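Liver RNA was made into stranded, polyA-selected libraries. The authors aligned reads with STAR 2.5.0a to GRCm39 and deposited counts of reads per gene, without normalization, for each liver. The counts of the sense strand were used. Symbols, positions and the length of the canonical transcript came from GENCODE vM39, in which 54749 of 55416 identifiers were found. Summary lines, which name no gene and held 24.0% to 35.0% of reads, were left out. Columns of counts for both strands served as an alternative.

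The 9 genes and all lists were chosen with earlier results of these data known. Groups came from the sample labels. Genes passing filterByExpr were tested in edgeR 4.0.16 (R 4.3.3) with TMM scaling and its quasi-likelihood test, in 1 model of 6 group means over 46 livers, with Benjamini-Hochberg adjustment over 15711 genes and a threshold of 0.05. CPM were scaled over all 48 livers. Correlations used log2 CPM with a prior count of 2. Tests of the carboxylase ratio were exact. On simulated data for DN:HOM against DN:WT (15267 genes, 200 changed), 85.6% of those given a log2 change of 1 and 94.9% of those given 2 were called, along with 13 unchanged genes. In the livers themselves 4713 genes were called lower and 4579 higher in this comparison. How well genes are called when that many change was not tested.

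Named genes were the 9, Nr1h3, up to 4 called genes per list with the largest change, the 8 genes most like Fasn, and overlapping genes. Single cell type and sex markers were named for their level. The NF-Y genes, Scd2, Cpt1a, Ndufab1, AMP-activated kinase subunits beyond the rule, Tat, Apoa1, Adgre1 and Mpeg1 were named after their values were seen. So were Trf, Serpina1a, Fgb, Fga, Fgg, Hnf4a, Ahsg, Vsig4 and Marco. Abcb11, Baat and Nr0b2 were named for the match to the source data. Alternatives were all 48 livers, DESeq2 1.42.0, upper-quartile scaling, library size alone, no filter, a mean CPM of at least 1, both strands, each study alone, compared groups alone, and leaving out livers under 10000000 reads. Leaving out each liver in turn, DESeq2 over 48 livers and group overlap over 48 livers and the relation to the share of reads naming no gene were added after the data were seen. Python 3.11.15 with scipy 1.17.1 was used. Some genes that the naming rules would cover are not reported here.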

Additional observations from a re-analysis of the deposited data

Results flagged for a closer look

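A value was singled out when its distance to the nearest other liver, as a share of its group's range, passed Dixon's 95% critical value. Of 72 gene and group combinations checked, 15 did so, where chance gives about 1 in 20. The library labelled DN:HOM animal 12 was the highest of its 8 for every member, with shares of 0.868 for Slc25a1, 0.897 for Acly, 0.859 for Acss2, 0.901 for Acaca, 0.956 for Acacb, 0.978 for Fasn, 0.923 for Me1, 0.946 for Thrsp and 0.919 for Pnpla3. The library labelled DN:WT animal 10 was not singled out for any.

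DN:WT animal 17 stood apart for Pnpla3, with 0.712 among 8 livers and 0.765 among 7, and for Acly, with 0.627 among 7. DN:HET animal 20 was far above its group for Acaca (0.608). Once animal 12 was left out, DN:HOM animal 33 stood apart for Slc25a1 (0.585) and DN:HOM animal 19 for Thrsp (0.63).

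The homozygous effect differed between the studies by the test of the difference itself in edgeR for 6 members. On the log2 scale the knock-in effect minus the knockout effect was -4.38 for Thrsp, -3.37 for Fasn, -1.64 for Acaca, -1.54 for Acly, -1.37 for Acss2 and -1.34 for Me1. None of the 6 was called with all 48 livers, where edgeR and DESeq2 each called 0 of the 9 members and 2 had an unadjusted p under 0.05 in each tool. The differences of the 9 members in edgeR then ran from -1.89 to -0.05.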

How the results depend on the processing

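Of 773 log2 fold changes of members recomputed under other settings, 723 kept their direction and their side of the threshold. The number of members called lower in KO:HOM against KO:HET livers was 3, and it became 6 with DESeq2 and 1 with all 48 livers, with DESeq2 over all 48 livers, without the livers under 10000000 reads and with each study alone. The number called in the difference between the studies was 6 and became 0 with all 48 livers, by edgeR and by DESeq2. That of DN:WT against KO:WT was 1 and became 0 with all 48 livers, by edgeR and by DESeq2, and with the compared groups alone. Leaving out each liver in turn gave 9 to 9 members called lower in DN:HOM against DN:WT and against DN:HET, 8 to 9 in KO:HOM against KO:WT, 1 to 5 in KO:HOM against KO:HET, 6 to 7 in the difference, 0 to 4 in DN:WT against KO:WT, and 0 to 0 in both heterozygous comparisons. The loss in KO:HOM was the call of Acaca, without KO:WT animal 23 or 34 or KO:HOM animal 8, 17, 26 or 27. The number of members whose DN:HOM livers all lay below the DN:WT livers, or below the DN:HET livers, was 9 and became 0 with all 48 livers. The cause of these changes was not tested.

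Values near 0 changed sign. Acaca in DN:HET against DN:WT was 0.0009 with all 48 livers and 0.0053 with DESeq2 over them. The difference of Slc25a1 was 0.0928 with library size alone, and that of Pnpla3 was 0.0575 with DESeq2 over all 48 livers. Slc25a1 in DN:WT against KO:WT was 0.0169 with upper-quartile scaling, 0.0474 with library size alone, 0.0022 without a filter and 0.0028 with a mean CPM of at least 1.

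Library size alone moved the median of all genes by 0.42 in DN:HOM against DN:WT, by 0.35 in DN:HOM against DN:HET and by 0.31 in the difference. It gave 9283 genes higher and 1738 lower in DN:HOM against DN:WT, where TMM gave 4579 and 4713. The 9 members stayed lower there, with a median of -2.17, and Slc25a1 lost its call against DN:HET (adjusted p = 0.232, edgeR's quasi-likelihood test).

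The carboxylase ratio and all 36 correlations by r kept their calls under each alternative run, and 35 by rho did with the share of reads naming no gene removed. Leaving out each liver, DESeq2 over 48 livers, overlap over 48 livers and removal of that share were chosen after seeing the data. Sex was not fitted, since all 48 livers had Y-linked reads. Pnpla3 was not tested in KO:HOM against KO:HET with the compared groups alone. No paired analysis was possible because the animal numbers name different mice, none recur within a study, and the studies hold separate mice even where numbers are the same. The paper states that these mouse studies were split into cohorts, which the labels used here do not name, so cohort was not fitted. Depth limits Pnpla3 most, whose lowest liver had 1 read.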

Other observations

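Fatty acids are also built inside mitochondria, by a separate set of enzymes that serves lipoic acid. Of 10 such genes, 8 were tested, of which 7 fell and 1 rose in DN:HOM livers (median log2 fold change -0.51), and 2 fell in KO:HOM livers (median -0.11). Those 2, Mcat and Ndufab1, were not called there with all 48 livers (adjusted p of 0.109 and 0.0823, edgeR's quasi-likelihood test). Oxsm, the mitochondrial ketoacyl synthase, fell by 0.80 on the log2 scale in DN:HOM livers (adjusted p = 1.32e-10, edgeR's quasi-likelihood test), as did Acsf3 (-0.62) and Mcat (-0.62), which supply malonyl groups there. Lipt2, a lipoyl transferase, was the gene that rose (0.97, adjusted p = 1.02e-05, same test). The median of the 9 cytosolic-pathway genes there was -2.60.

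Malonyl-CoA made by ACC2 restrains the carnitine shuttle. Of 6 genes that use malonyl-CoA or carry acyl groups into mitochondria, 5 fell in DN:HOM livers (median -0.79) and 1 in KO:HOM livers (median -0.13). Cpt2 fell by 0.89, Mlycd, which breaks down malonyl-CoA, by 0.85, Crat by 0.80, Slc25a20, the carnitine carrier, by 0.78 and Cpt1a, the malonyl-CoA-sensitive transferase, by 0.69 in DN:HOM livers. Mlycd was the gene that fell in KO:HOM livers (-0.28, adjusted p = 0.00519, edgeR's quasi-likelihood test), a call that was lost with all 48 livers (adjusted p = 0.128).

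Counts here stand beside 30% of all genes called lower and 29.1% called higher in DN:HOM livers, and 7.87% and 11.5% in KO:HOM livers. Among markers of other cells, 3 of 8 T and B cell markers rose and 1 fell in DN:HOM livers, and 5 rose in KO:HOM livers. The 48 livers gave 1 call in DN:HOM livers, higher, and 5 in KO:HOM livers. Of 6 endothelial markers, 4 fell and 1 rose in DN:HOM livers, and the 48 livers gave 4 calls, all lower. Of 5 erythroid markers, 2 fell in DN:HOM and 1 in KO:HOM livers, and all 48 livers gave 1 call in DN:HOM.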
